A study of Homo sapiens with 6 samples.

Results

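The 10 genes described here move iron through the cell: TFRC, TFR2, STEAP3 and SLC11A2 in uptake, FTH1 and FTL in storage, SLC40A1 in export, HMOX1 in haem breakdown, and ACO1 and IREB2 as the iron regulatory proteins. Their chromatin was read from every site of the deposited table that overlapped a gene body or the 20 kb on either side of it. This gave 107 of the 181135 listed sites, and all 107 passed the filter on low counts. The sites divide into 54 around uptake genes, 22 around storage genes, 6 around the exporter, 7 around HMOX1 and 18 around the iron regulatory proteins. Gene bodies overlapped 43 of them, and 9 lay within 1000 bases of the start of another protein-coding gene, so a site is named by its position and not taken to act on the iron gene.

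The study measured chromatin accessibility by ATAC-seq, in which a transposase cuts open DNA and the reads over a site count the cuts. All samples were wild-type K562 cells, a human leukaemia line that carries red-cell and megakaryocyte traits. Cells were given PMA at 25 nM for 0, 6 or 72 h, with fresh medium each day in the long treatment. PMA is a phorbol ester: it switches on protein kinase C, and in this line it is used to drive cells towards a megakaryocyte-like state. Each time had 2 libraries, which the labels call replicates without saying whether they came from separate cultures, so p-values measure the spread between these libraries, which may be technical. No untreated culture kept for 72 h is among the samples used here, so time in culture and PMA cannot be told apart.

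Iron reaches most cells bound to transferrin, which is taken up by a surface receptor, released in the endosome, reduced there and carried into the cytosol. What is not used is stored in ferritin, a shell of heavy and light chains, or leaves through ferroportin. The iron regulatory proteins bind hairpins in the mRNAs of the receptor, ferritin and ferroportin, and so control these genes after transcription, at a level that ATAC-seq does not read. Red-cell precursors have a high demand for iron because they make haem, and K562 cells can make haemoglobin.

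Promoter sequence is shown for TFRC, STEAP3, FTL and SLC40A1, which stand for the receptor, the reductase, the storage chain and the exporter described below. Their start sites all fell at 72 h on the TMM scale, and differences between them were not tested. Each run is the 250 bases before the RefSeq start on GRCh38.p14, 5′ to 3′ on the gene's strand, and lies within the start site measured here. Capitals would mark a match to a searched motif, and these windows have none. TFRC lies on the minus strand (chr3:196082091-196082340), STEAP3 on the plus strand (chr2:119223584-119223833), FTL on the plus strand (chr19:48965059-48965308) and SLC40A1 on the minus strand (chr2:189580787-189581036).
TFRC: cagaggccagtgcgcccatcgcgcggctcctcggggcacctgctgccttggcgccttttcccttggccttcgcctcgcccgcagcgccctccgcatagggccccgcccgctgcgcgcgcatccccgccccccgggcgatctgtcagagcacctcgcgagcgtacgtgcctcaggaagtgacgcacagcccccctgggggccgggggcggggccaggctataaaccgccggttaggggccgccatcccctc
STEAP3: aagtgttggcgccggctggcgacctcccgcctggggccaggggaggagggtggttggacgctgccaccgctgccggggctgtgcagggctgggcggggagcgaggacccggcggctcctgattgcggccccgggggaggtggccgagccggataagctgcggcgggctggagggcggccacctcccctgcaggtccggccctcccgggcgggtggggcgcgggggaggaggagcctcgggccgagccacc
FTL: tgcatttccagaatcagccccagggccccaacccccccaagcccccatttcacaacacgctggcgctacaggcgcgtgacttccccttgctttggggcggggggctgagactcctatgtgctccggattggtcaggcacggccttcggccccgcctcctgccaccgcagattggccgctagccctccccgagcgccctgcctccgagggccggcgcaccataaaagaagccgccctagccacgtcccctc
SLC40A1: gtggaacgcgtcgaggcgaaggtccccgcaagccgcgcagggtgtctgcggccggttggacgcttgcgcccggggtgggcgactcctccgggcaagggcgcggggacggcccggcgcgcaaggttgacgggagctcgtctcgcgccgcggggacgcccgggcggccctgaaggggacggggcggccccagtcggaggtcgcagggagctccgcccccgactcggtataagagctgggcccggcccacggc
All of them are rich in G and C, at 74.4% for TFRC, 78.4% for STEAP3, 67.6% for FTL and 77.2% for SLC40A1. The SLC40A1 run holds 38 CG pairs, TFRC 29, STEAP3 25 and FTL 18.

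RefSeq promoter entries were found for 7 of the 10 genes and not for TFR2, FTH1 and HMOX1. The windows, from 250 bases before to 50 after a start, were searched on both strands for the AP-1 site TGANTCA, the antioxidant response element TGACNNNGC, the GATA sites AGATAA and TGATAA, the E-box CACGTG and the ETS core CCGGAA. The first 2 patterns can overlap each other. Matches were found only in windows of SLC11A2, which has 4 listed starts. Its window at chr12:51026335-51026634, under the open start site, held the ETS core, the window at chr12:51009166-51009465 held an AP-1 match, and the one at chr12:51028193-51028492 held a GATA match. Over all 35116 promoter windows of the table the share with a match was 7.71% for AP-1, 13.3% for the antioxidant response element, 16.3% for GATA, 7.26% for the E-box and 17.2% for the ETS core. A match is a run of letters and not a measured binding site.

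Counts in the listed sites summed to between 12258890 (6 h replicate 1) and 35548737 (72 h replicate 2) per library. The iron sites took 0.109% and 0.119% of these counts in the 0 h libraries. Their share was 0.0889% and 0.0941% after 6 h, and 0.0729% and 0.0716% after 72 h. Of 10 erythroleukaemia markers, 4 had a start site that could be tested (GATA1, TAL1, GFI1B and EPOR), and all 4 carried a peak in both 0 h libraries. KLF1 had a promoter entry but no tested start site, and the rest had no entry. Among the 10415 tested sites at protein-coding gene starts, 9335 and 9557 carried a peak in the 0 h libraries. Peaks at the 4 markers therefore cannot identify the line, which is taken from the labels. The summed level of the 4 was 127.3 and 126.0 CPM (counts per 1000000 of the scaled library) at 0 h and 44.6 and 43.97 CPM at 72 h. Each was lower at 6 h and at 72 h, beside 48% and 87.1% of all tested sites at protein-coding gene starts. At 72 h such a fall was thus common to gene starts on the scale used here. Of the 15 markers of other cell types, 4 had a start site: CD3D and CD79A carried a peak in both 0 h libraries, KRT5 and PDGFRA did not, and none was called changed on the scale used here. The fall of the erythroid markers moves with the iron results below, and its part in them was not tested.

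Across the 107 sites, more fell than rose in accessibility over the time course on the TMM scale. At 6 h against 0 h, 18 sites rose and 37 fell, at a Benjamini-Hochberg adjusted p under 0.05 in the quasi-likelihood test of edgeR. Among all 177759 tested sites, 23.4% rose and 16.8% fell in that comparison. At 72 h against 0 h, 23 rose and 52 fell, beside 38.2% and 29.2% of all tested sites. From 6 h to 72 h, 13 rose and 45 fell, beside 22.1% and 20.9% of all tested sites. The median log2 fold change of the iron sites was −0.29, −0.69 and −0.60 (the last from 6 h to 72 h), beside 0.05, 0.29 and 0.03 over all tested sites. With an adjusted p under 0.01 and a log2 fold change above 1 in size, the balance at 6 h turned to 13 higher and 8 lower, while at 72 h against 0 h it was 19 and 44. The shares of all tested sites at this stricter threshold were not computed, so the turn cannot be called particular to the iron sites. A change at some time was called at 79 of the 107, a share close to the 72% of all tested sites.

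That balance depends on how the libraries are scaled. Of the iron sites called at 72 h against 0 h, 30.7% were higher on the TMM scale used here, 28.9% under RLE size factors, 41.9% under total counts and 21.1% under loess offsets. With TMM factors taken only from sites that carry a peak in all 6 libraries, 43 rose and 27 fell, so that 61.4% were higher. For 6 h against 0 h the share was 32.7% on the TMM scale, 46.7% under total counts and 65.8% under the shared-peak factors, and for 72 h against 6 h it was 22.4%, 42.2% and 66.7%. Over all tested sites the same share at 72 h against 0 h was 56.7% (TMM), 51.6% (RLE), 71.1% (total counts), 46.8% (loess) and 84.0% (shared-peak factors). On each scale it exceeded the share among the iron sites. The median of all tested sites at 72 h ran from −0.04 (loess) to 1.26 (shared-peak factors), and the iron median from −0.87 (RLE) to 0.28 (shared-peak factors). At 72 h the iron median was below that of all tested sites on each of the 5 scales.

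More mixed were the 88 sites that were neither a start site nor within 1000 bases of another gene's start. They include sites beside an iron gene's own start. Examples are those 700 bases upstream of SLC40A1 and 479 bases inside FTH1, both lower at 72 h. Of the 88, 17 rose and 22 fell at 6 h, beside 24.6% and 14.8% of all tested sites away from gene starts, meaning those that overlap no start. At 72 h, 22 rose and 36 fell, beside 40.3% and 25.6%, and from 6 h to 72 h 13 rose and 30 fell, beside 23.3% and 17.1%.

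Start sites showed the fall most plainly. Of the 10 start sites, 9 fell and none rose at 6 h, 9 fell and 1 rose at 72 h, and 9 fell and none rose from 6 h to 72 h. The 1 that rose was the HMOX1 site, which ends 791 bases upstream of the start and has no peak in any library. Each of the gene-start sites it is set beside overlaps a start. Among the 10415 tested sites at protein-coding gene starts, however, 48% fell and 4.13% rose at 6 h, 87.1% fell and 4.48% rose at 72 h, and 80.8% fell and 2.74% rose from 6 h to 72 h. In 9 of the 10 iron genes both 72 h libraries lay below both 0 h libraries, as they did at 89.9% of gene starts and 36.9% of all tested sites. A fall at 72 h was therefore the common state of gene starts on this scale. The median of the iron start sites was −1.71 at 72 h, beside −1.33 (quartiles −1.55 and −1.003) over gene starts. Under loess offsets, 8 of the 10 iron start sites fell at 72 h and none rose, beside 53.6% and 8.68% of gene starts, and the medians were −0.59 and −0.41.

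**Figure D1:**
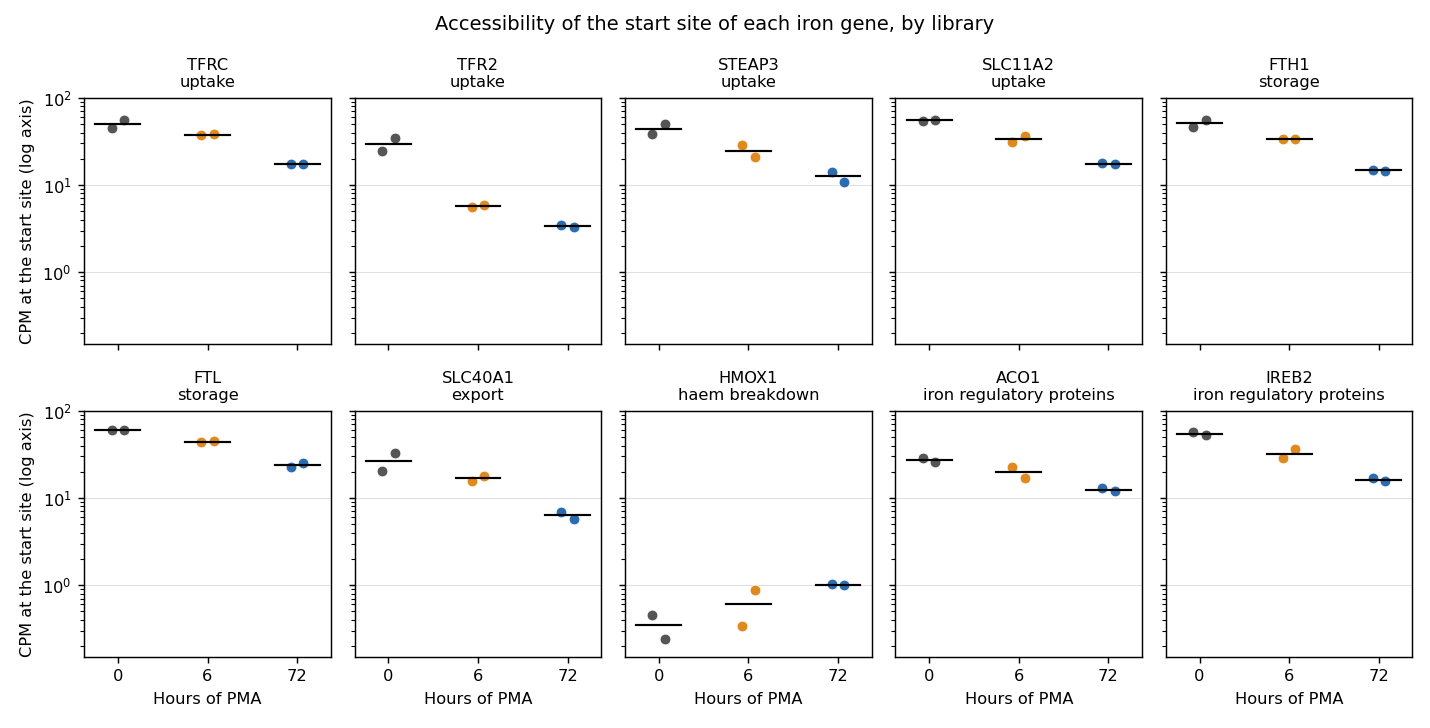
Level of the start site of each iron gene, in CPM on a log axis, for each library (points) with the mean of the 2 libraries (bars), at 0, 6 and 72 h of PMA. In 9 genes every 72 h library lies below every 0 h library, with TFR2 falling from 24.6 and 34.3 to 3.44 and 3.30 CPM, while the HMOX1 site, 791 bases upstream of the gene, stays near 1 CPM or lower.

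To say where a start site stands without leaning on the scale, its log2 fold change was placed in the order of all 10415 gene-start sites. A constant rescaling of a library leaves that order almost unchanged. At 72 h, 0.144% of gene starts had a lower value than TFR2, 1.84% a lower value than SLC40A1, 6.49% than STEAP3, 7.78% than FTH1, 8.63% than IREB2 and 15.7% than SLC11A2. TFRC stood at 27.5%, FTL at 49.1%, ACO1 at 66.3% and the HMOX1 site at 97.7%. Loess offsets, which remove a trend with site strength, put TFR2 at 0.576%, SLC40A1 at 7.91%, STEAP3 at 23.7%, FTH1 at 31.6% and IREB2 at 34.2%. On that scale SLC11A2 stood at 42.6%, ACO1 at 45.6%, TFRC at 51.2%, FTL at 75.6% and the HMOX1 site at 97.5%. The positions are a description of these genes, which were chosen with earlier results known.

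TFRC encodes transferrin receptor 1, the main route of iron into red-cell precursors. Its start site (chr3:196081189-196082511) measured 45.5 and 55.2 CPM at 0 h, 37.4 and 38.03 CPM at 6 h, and 17.5 and 17.7 CPM at 72 h. The times do not overlap, and the replicates lie close at 6 h and 72 h. The log2 fold change was −0.42 ± 0.15 (SE) at 6 h (edgeR, adjusted p = 0.031) and −1.52 ± 0.15 at 72 h (2.4e-08). The call at 6 h was lost under total counts (−0.28), loess offsets (−0.16) and shared-peak factors (−0.12), and without 0 h replicate 2 (−0.27), 6 h replicate 1 (−0.40) or 6 h replicate 2 (−0.49).

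The larger change near TFRC lay at the other end of the gene. A site just past its 3′ end (chr3:196047299-196048905) measured 17.5 and 23.8 CPM at 0 h, 2.98 and 4.62 CPM at 6 h, and 1.06 and 1.51 CPM at 72 h. It carried a peak in both 0 h libraries and in no later one. The fall was −2.39 ± 0.26 at 6 h (edgeR, adjusted p = 2.1e-07) and −4.00 ± 0.27 at 72 h (2.9e-10), and 0.325% of all tested sites had a lower value at 72 h. The site was named for its fall and is the lowest of the 107 at 72 h, so its place in that order follows in part from the choice. The fall was called in all 3 comparisons on each of the 5 scales. A site inside the gene (chr3:196055509-196056318) went the other way, with 6.63 and 6.93 CPM at 0 h and 9.03 and 13.8 CPM at 72 h. Its rise of 0.75 ± 0.23 (edgeR, adjusted p = 0.006) was not called without 72 h replicate 2 (0.41) or by DESeq2 (0.57).

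TFR2, a second transferrin receptor found on liver and erythroid cells, had the deepest fall of the start sites. Its start site (chr7:100641238-100642007) measured 24.6 and 34.3 CPM at 0 h, 5.63 and 5.89 CPM at 6 h, and 3.44 and 3.30 CPM at 72 h. Most of the fall had taken place by 6 h. The log2 fold change was −2.35 ± 0.21 at 6 h (edgeR, adjusted p = 1.9e-08), −3.13 ± 0.21 at 72 h (2.8e-10) and −0.78 ± 0.22 from 6 h to 72 h (0.007). The calls against 0 h held on all 5 scales, while the step from 6 h to 72 h was lost on 3 of them and without 6 h replicate 2, 72 h replicate 1 or 72 h replicate 2. At 6 h, 7 of the 10415 gene-start sites had a lower value than TFR2.

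Sites on either side of the TFR2 start fell with it. The site 671 bases upstream (chr7:100642223-100643028) measured 17.8 and 20.8 CPM at 0 h and 5.41 and 5.38 CPM at 72 h, and the site 498 bases downstream (chr7:100639783-100641054) 13.3 and 26.6 CPM and 6.70 and 6.65 CPM. Their log2 fold changes at 72 h were −1.84 ± 0.20 and −1.59 ± 0.25 (edgeR, adjusted p = 6.2e-08 and 1.2e-05). In the TFR2 window as a whole, 3 of 14 sites rose and 9 fell at 72 h, beside 38.2% and 29.2% of all tested sites. The largest rise lay inside the neighbouring gene PCOLCE (chr7:100607015-100607507), from 0.650 and 1.1 CPM at 0 h to 2.73 and 4.02 CPM at 6 h and 6.32 and 7.98 CPM at 72 h, or 2.99 ± 0.33 (edgeR, adjusted p = 1e-07). PCOLCE encodes an enhancer of procollagen processing, and only 1 library, 72 h replicate 2, had a peak at this site.

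STEAP3, the reductase that converts iron in the endosome of erythroid cells, had the most sites of the 10 genes, and the most that rose at 72 h. At 6 h SLC11A2 had as many that rose. The start site (chr2:119223343-119224371) fell like the others, from 38.2 and 49.8 CPM at 0 h to 28.5 and 21.1 CPM at 6 h and 14.3 and 10.9 CPM at 72 h. Its log2 fold change was −0.84 ± 0.19 at 6 h (edgeR, adjusted p = 0.00096) and −1.81 ± 0.19 at 72 h (3.6e-08), called on all 5 scales. Of all 16 sites, however, 5 rose and 2 fell at 6 h, and 7 rose and 3 fell at 72 h. Among all tested sites away from gene starts, 24.6% rose at 6 h and 40.3% at 72 h, so the share of STEAP3 sites that rose is near that background. The median of the 15 sites other than the start was 0.61 at 72 h, beside 0.44 over tested sites away from gene starts.

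The strongest rise among all 107 sites at 6 h lay inside STEAP3, 28819 bases past the start (chr2:119252653-119253407). It measured 0.455 and 1.24 CPM at 0 h, 15.3 and 19.2 CPM at 6 h, and 14.3 and 13.7 CPM at 72 h. The site had 7 and 26 counts and no peak in the 0 h libraries, and a peak in all 4 later libraries. On the log2 scale the change was 4.27 ± 0.30 at 6 h (edgeR, adjusted p = 7.2e-10), 3.96 ± 0.30 at 72 h (8.4e-10) and −0.31 ± 0.22 from 6 h to 72 h (0.263). At 6 h, 0.485% of all tested sites had a higher value, a place that follows in part from its choice as the highest of the 107. Both calls held on the 5 scales and without any 1 library.

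Other STEAP3 sites differed in when they opened. A site 31867 bases past the start (chr2:119255701-119256414) was already at 2.73 and 3.06 CPM at 0 h and stood at 12.5 and 12.8 CPM at 6 h and 13.4 and 14.7 CPM at 72 h. A second early site, 24366 bases past the start (chr2:119248200-119248782), went from 0.260 and 0.813 CPM to 3.33 and 3.45 CPM and 3.83 and 4.04 CPM. These 2 sites rose by 6 h and were not called from 6 h to 72 h, at 0.15 ± 0.20 and 0.21 ± 0.31 (edgeR, adjusted p = 0.564 and 0.603). Under the shared-peak factors both were called higher from 6 h to 72 h (0.82 and 0.88), and the first also under total counts (0.51). Late opening was seen at 60031 bases past the start, within C2orf76 (chr2:119283865-119284536), with 0.650 and 0.669 CPM at 0 h, 1.28 and 0.981 CPM at 6 h, and 6.24 and 8.64 CPM at 72 h. Its log2 fold change was 0.71 ± 0.43 at 6 h (edgeR, adjusted p = 0.19) and 2.77 ± 0.32 from 6 h to 72 h (1.3e-06). These 3 sites were chosen after their values were seen.

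One STEAP3 site dipped and then rose. It lies 16577 bases past the start (chr2:119240411-119241224) and measured 3.12 and 2.68 CPM at 0 h, 0.938 and 1.74 CPM at 6 h, and 7.95 and 7.17 CPM at 72 h. The fall at 6 h was −0.99 ± 0.33 (edgeR, adjusted p = 0.019) and was lost under the shared-peak factors (−0.69) and without 0 h replicate 1 (−0.93) or 6 h replicate 1 (−0.72). The rise at 72 h was 1.39 ± 0.28 against 0 h (0.00015) and 2.38 ± 0.30 against 6 h (3e-06), and both held on all 5 scales.

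**Figure D2:**
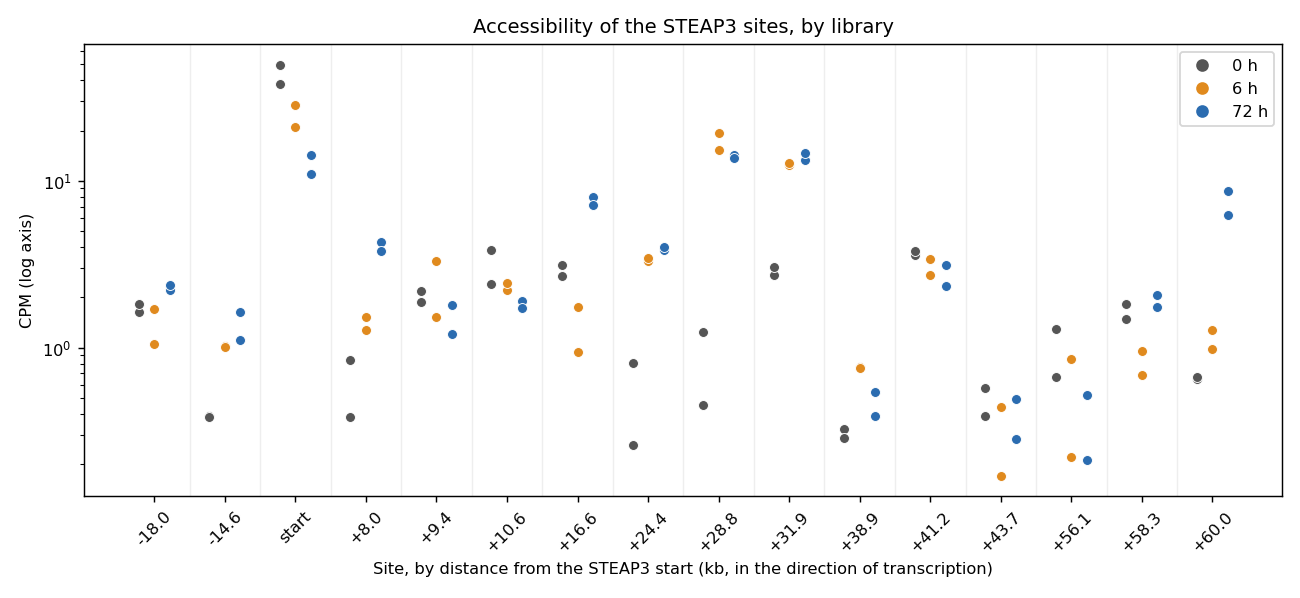
Level of each of the 16 STEAP3 sites, in CPM on a log axis, by distance from the gene start in kb, with 1 point for each library at 0, 6 and 72 h. The start site drops with time, the sites 28.8 and 31.9 kb past it are high from 6 h on, and the site 60.0 kb past it is high only in the 72 h libraries.

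SLC11A2 encodes DMT1, the carrier that moves reduced iron out of the endosome. Its start site (chr12:51025839-51026812) measured 54.8 and 55.4 CPM at 0 h, 31.0 and 36.7 CPM at 6 h, and 17.8 and 17.3 CPM at 72 h. The replicates lie close and the times do not overlap. The log2 fold change was −0.70 ± 0.15 at 6 h (edgeR, adjusted p = 0.00077) and −1.65 ± 0.15 at 72 h (7.6e-09), called on all 5 scales. The site covers 1 of the 4 RefSeq starts, and no other start of the gene is overlapped by a listed site.

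Within SLC11A2, weak sites opened. The largest rise at 72 h (chr12:50985083-50985677) went from 0.195 and 0.335 CPM at 0 h to 1.53 and 1.27 CPM at 6 h and 4.94 and 3.89 CPM at 72 h, or 3.99 ± 0.43 (edgeR, adjusted p = 7e-08). The largest rise at 6 h, 2614 bases upstream of an internal start (chr12:51011829-51012397), went from 0.455 and 0.239 CPM to 1.88 and 1.71 CPM, or 2.39 ± 0.50 (edgeR, adjusted p = 0.00056), and stood at 1.68 and 2.05 CPM at 72 h. Both sites had 3 to 7 counts in each 0 h library. Beyond the 3′ end, a site within HIGD1C (chr12:50936768-50937233) closed early, from 5.91 and 5.5 CPM at 0 h to 0.853 and 0.664 CPM at 6 h and 0.595 and 0.708 CPM at 72 h. Its fall was −2.96 ± 0.36 at 6 h (edgeR, adjusted p = 1.2e-06) and −3.12 ± 0.33 at 72 h (5.9e-08). In all, 4 of the 15 sites rose and 8 fell at 72 h, beside 38.2% and 29.2% of all tested sites.

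On the TMM scale the storage genes had the lowest median of the 5 roles at 72 h. Under loess offsets the medians of export and haem breakdown lay below that of storage. Of the 22 storage sites, 2 rose and 12 fell at 6 h on the TMM scale, and 3 rose and 16 fell at 72 h, with a median of −1.30. The uptake genes had 15 sites higher and 24 lower of 54 at 72 h, with a median of −0.50. STEAP3 held 7 of these 15 rises and had a median of 0.51. The medians of the other uptake genes were −0.85 (TFRC), −1.25 (TFR2) and −0.97 (SLC11A2), beside −1.30 for FTH1 and −1.25 for FTL. The smaller fall of uptake as a role thus rests largely on STEAP3. Of all tested sites, 23.4% rose and 16.8% fell at 6 h, and 38.2% rose and 29.2% fell at 72 h, with a median of 0.29. Without the start sites and the starts of other genes, the storage median stayed at −1.30 over 18 sites and the uptake median was −0.39 over 46. The difference between the roles was not tested.

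FTH1 encodes the ferritin heavy chain, which oxidises iron as it enters the shell. Its start site (chr11:61967273-61968085) measured 46.4 and 55.3 CPM at 0 h, 33.7 and 34.0 CPM at 6 h, and 15.0 and 14.7 CPM at 72 h. The fitted log2 change was −0.59 ± 0.15 at 6 h (edgeR, adjusted p = 0.004) and −1.78 ± 0.15 at 72 h (3.8e-09), and the call at 6 h was lost under the shared-peak factors (−0.29). A neighbouring site inside the gene (chr11:61966596-61967155) fell further, from 20.6 and 18.9 CPM at 0 h to 8.53 and 8.58 CPM at 6 h and 5.20 and 3.96 CPM at 72 h, or −2.11 ± 0.21 (edgeR, adjusted p = 2.1e-08). It carried a peak in both 0 h libraries and in no later one.

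Around FTH1, 1 of 10 sites rose and 7 fell at 72 h, beside 38.2% and 29.2% of all tested sites. A site within BEST1 (chr11:61959149-61959551) was highest at 6 h, with 2.79 and 2.06 CPM at 0 h, 5.54 and 6.01 CPM at 6 h, and 2.10 and 1.89 CPM at 72 h. The rise at 6 h was 1.27 ± 0.29 (edgeR, adjusted p = 0.001), the fall from 6 h to 72 h was −1.54 ± 0.28 (0.00014), and both held on all 5 scales. The value at 72 h against 0 h was −0.27 ± 0.30 (0.433), but it was called lower under loess offsets (−0.90) and higher under the shared-peak factors (0.70). The site that rose at 72 h lay 18233 bases upstream (chr11:61985867-61986422) and went from 0.650 and 0.909 CPM to 1.89 and 2.86 CPM, or 1.58 ± 0.44 (edgeR, adjusted p = 0.003). This call was lost under loess offsets (0.89) and without 72 h replicate 2 (1.25).

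FTL encodes the ferritin light chain, which helps the iron core to form. Its start site (chr19:48964908-48965944) measured 60.1 and 60.8 CPM at 0 h, 44.3 and 44.6 CPM at 6 h, and 22.8 and 25.1 CPM at 72 h. The replicates are close and the times do not overlap. On the TMM scale the log2 fold change was −0.44 ± 0.14 at 6 h (edgeR, adjusted p = 0.016) and −1.33 ± 0.14 at 72 h (5.5e-08). Under loess offsets, however, the value at 72 h was −0.05 (0.74), so the fall at the FTL start is called only where the trend with site strength is left in. The call at 6 h was also lost under total counts (−0.31), loess offsets (−0.12) and shared-peak factors (−0.15), and without 6 h replicate 1 (−0.44) or 6 h replicate 2 (−0.51).

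Some sites beside FTL fell further than its start. The largest fall at 72 h lay within GYS1, the muscle-type glycogen synthase gene (chr19:48976055-48976692), from 12.9 and 10.6 CPM at 0 h to 5.46 and 6.49 CPM at 6 h and 1.14 and 1.91 CPM at 72 h. It came to −2.93 ± 0.27 (edgeR, adjusted p = 8.8e-09), and the peak present at 0 h and 6 h was absent from both 72 h libraries. A site 2522 bases upstream of FTL (chr19:48962225-48962787) had its fall by 6 h, with 23.1 and 19.2 CPM at 0 h, 6.91 and 10.7 CPM at 6 h, and 7.40 and 8.99 CPM at 72 h. The log2 fold change there was −1.23 ± 0.22 at 6 h (edgeR, adjusted p = 0.00011) and −0.13 ± 0.22 from 6 h to 72 h (0.646).

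Of the 12 FTL sites, 2 rose at 72 h and 9 fell, beside 38.2% and 29.2% of all tested sites. A second site within GYS1 (chr19:48978711-48979409) went from 4.16 and 5.78 CPM at 0 h to 8.10 and 10.9 CPM at 6 h and 7.69 and 7.01 CPM at 72 h. Its rise was 0.95 ± 0.25 at 6 h (edgeR, adjusted p = 0.004), lost under loess offsets (0.59) and without 0 h replicate 1 (0.68) or 6 h replicate 2 (0.64). At 72 h it was 0.55 ± 0.24 (edgeR, adjusted p = 0.049), a call lost under RLE (0.37) and loess offsets (0.34), by DESeq2 (0.37), and without 0 h replicate 1 (0.33), 72 h replicate 1 (0.48) or 72 h replicate 2 (0.62). The other site, 14752 bases upstream (chr19:48950094-48950557), rose late, from 0.975 and 1.67 CPM at 0 h and 0.171 and 0.949 CPM at 6 h to 3.05 and 3.89 CPM at 72 h. From 6 h to 72 h that was 2.34 ± 0.44 (edgeR, adjusted p = 0.0002). Against 0 h it was 1.36, a call lost under loess offsets (0.68), by DESeq2 (1.19) and without 72 h replicate 2 (1.18). Ferritin genes have many processed copies in the genome, and how reads that map to several places were treated is not given in the sources used here, so counts inside FTH1 and FTL are less certain than those outside.

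SLC40A1 encodes ferroportin, the iron exporter. Its start site (chr2:189580161-189581288) measured 20.5 and 32.7 CPM at 0 h, 15.5 and 18.0 CPM at 6 h, and 6.89 and 5.81 CPM at 72 h. The fall was −2.07 ± 0.21 at 72 h (edgeR, adjusted p = 3.3e-08) and −1.41 ± 0.21 from 6 h to 72 h (2.2e-05), both called on all 5 scales. At 6 h it was −0.66 ± 0.21 (edgeR, adjusted p = 0.014), and that call was lost under the shared-peak factors (−0.36) and without 0 h replicate 2 (−0.28) or 6 h replicate 1 (−0.56). The 0 h libraries differ more from each other here than at the FTL or SLC11A2 start.

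The second strong SLC40A1 site, 700 bases upstream (chr2:189581486-189582369), fell earlier and further. It measured 20.2 and 25.9 CPM at 0 h, 8.27 and 11.3 CPM at 6 h, and 3.99 and 4.41 CPM at 72 h. The log2 fold change was −1.21 ± 0.21 at 6 h (edgeR, adjusted p = 8.4e-05) and −2.46 ± 0.22 at 72 h (4.3e-09), and it was called in all 3 comparisons on all 5 scales and without any 1 library. The other 4 sites were weak, between 0 and 4.35 CPM in every library, and 1 of them fell at 72 h (−1.05), a call lost under total counts (−0.54) and shared-peak factors (−0.08). On the TMM scale no site around SLC40A1 was called higher at 6 h or at 72 h. Under the shared-peak factors, however, 3 of the weak sites were called higher at 72 h (1.87, 1.64 and 0.75) and 1 at 6 h (0.82), and under total counts 1 was called higher at 72 h (1.17). The site at 0.75 was called lower at 72 h under loess offsets (−0.87).

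HMOX1 encodes haem oxygenase 1, which splits haem and frees its iron. No listed site covered its start. The nearest (chr22:35379967-35380305) ended 791 bases upstream, carried no peak in any library and measured 0.455 and 0.239 CPM at 0 h, 0.341 and 0.886 CPM at 6 h, and 1.04 and 0.991 CPM at 72 h, from 4 to 42 counts a library. Its rise at 72 h, 1.58 ± 0.57 (edgeR, adjusted p = 0.017), was lost under loess offsets (1.14), by DESeq2 (1.40) and without 0 h replicate 2 (1.15), 72 h replicate 1 (1.54) or 72 h replicate 2 (1.61). Of the 7 sites around HMOX1, 1 rose and 4 fell at 72 h, beside 38.2% and 29.2% of all tested sites. The site inside the gene (chr22:35388786-35389030) went from 1.30 and 1.48 CPM at 0 h to 0.285 and 0.260 CPM at 72 h. That was −2.34 ± 0.50 (edgeR, adjusted p = 0.0003), from 11 counts in each 72 h library. A site 16294 bases upstream was not called at 72 h (0.35), but was higher under total counts (0.85) and shared-peak factors (1.32). The 2 upstream sites with peaks in all 6 libraries, chosen after their values were seen, were both lower at 72 h. The one 8112 bases upstream (chr22:35371530-35372984) went from 16.0 and 14.5 CPM to 6.06 and 4.55 CPM, or −1.52 ± 0.21 (edgeR, adjusted p = 2.1e-06). The one 3695 bases upstream (chr22:35376678-35377401) measured 8.32 and 8.89 CPM at 0 h, 8.44 and 10.5 CPM at 6 h and 5.13 and 4.34 CPM at 72 h. It was not called at 6 h (0.15 ± 0.23, edgeR, adjusted p = 0.621) and fell at 72 h (−0.86 ± 0.23, 0.002), a call that held on 2 of the other 4 scales.

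The strongest site in the HMOX1 window belongs to the start of MCM5, a subunit of the replicative helicase (chr22:35399428-35400459). It measured 26.8 and 29.7 CPM at 0 h, 16.4 and 18.9 CPM at 6 h, and 8.83 and 9.23 CPM at 72 h, a fall of −1.65 ± 0.18 (edgeR, adjusted p = 5.3e-08). The times do not overlap. Its value at 72 h lies among those of the iron start sites.

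The iron regulatory proteins kept strong start sites that fell with time. ACO1 encodes IRP1, which is a cytosolic aconitase when it holds an iron-sulphur cluster. Its start site (chr9:32384148-32385275) measured 29.2 and 26.1 CPM at 0 h, 22.5 and 16.96 CPM at 6 h, and 12.9 and 12.0 CPM at 72 h. The fall at 72 h, −1.15 ± 0.18 (edgeR, adjusted p = 8.4e-06), was the smallest of the 9 start sites that fell, and it was lost under the shared-peak factors (−0.18). At 6 h it was −0.50 ± 0.18 (edgeR, adjusted p = 0.031), lost under total counts (−0.36) and shared-peak factors (−0.20) and without 0 h replicate 1 (−0.48) or 6 h replicate 2 (−0.35).

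Inside ACO1, 13519 bases past the start (chr9:32398162-32398722), a site went from 0 and 0.526 CPM at 0 h to 1.28 and 2.06 CPM at 6 h and 1.71 and 2.57 CPM at 72 h. With 0 and 11 counts at 0 h the fitted value, 2.84 ± 0.59 at 72 h (edgeR, adjusted p = 0.00024), rests on few reads. It ranged from 2.01 to 8.91 as single libraries were left out, and DESeq2 did not call it (adjusted p = 0.057). Of the 9 ACO1 sites, 2 rose and only the start site fell at 72 h, beside 38.2% and 29.2% of all tested sites.

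IREB2 encodes IRP2, which is degraded when iron is plentiful. Its start site (chr15:78437325-78439023) measured 56.7 and 53.2 CPM at 0 h, 28.6 and 36.1 CPM at 6 h, and 16.9 and 15.5 CPM at 72 h. On the log2 scale the change was −0.76 ± 0.16 at 6 h (edgeR, adjusted p = 0.00052) and −1.76 ± 0.16 at 72 h (5.8e-09), called on all 5 scales. A site 19425 bases upstream (chr15:78418110-78418791) rose from 0.520 and 0.430 CPM at 0 h to 1.53 and 1.93 CPM at 6 h and 2.46 and 2.27 CPM at 72 h, or 2.32 ± 0.42 (edgeR, adjusted p = 5.4e-05). A site inside the gene (chr15:78455643-78456520) kept 3.07 and 2.21 CPM at 6 h, from 4.03 and 2.77 CPM, and had 1.22 and 0.732 CPM at 72 h. Its value was −0.39 ± 0.35 at 6 h (edgeR, adjusted p = 0.394) and −1.79 ± 0.36 at 72 h (0.00016), a call lost under the shared-peak factors (−0.83).

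**Figure D3:**
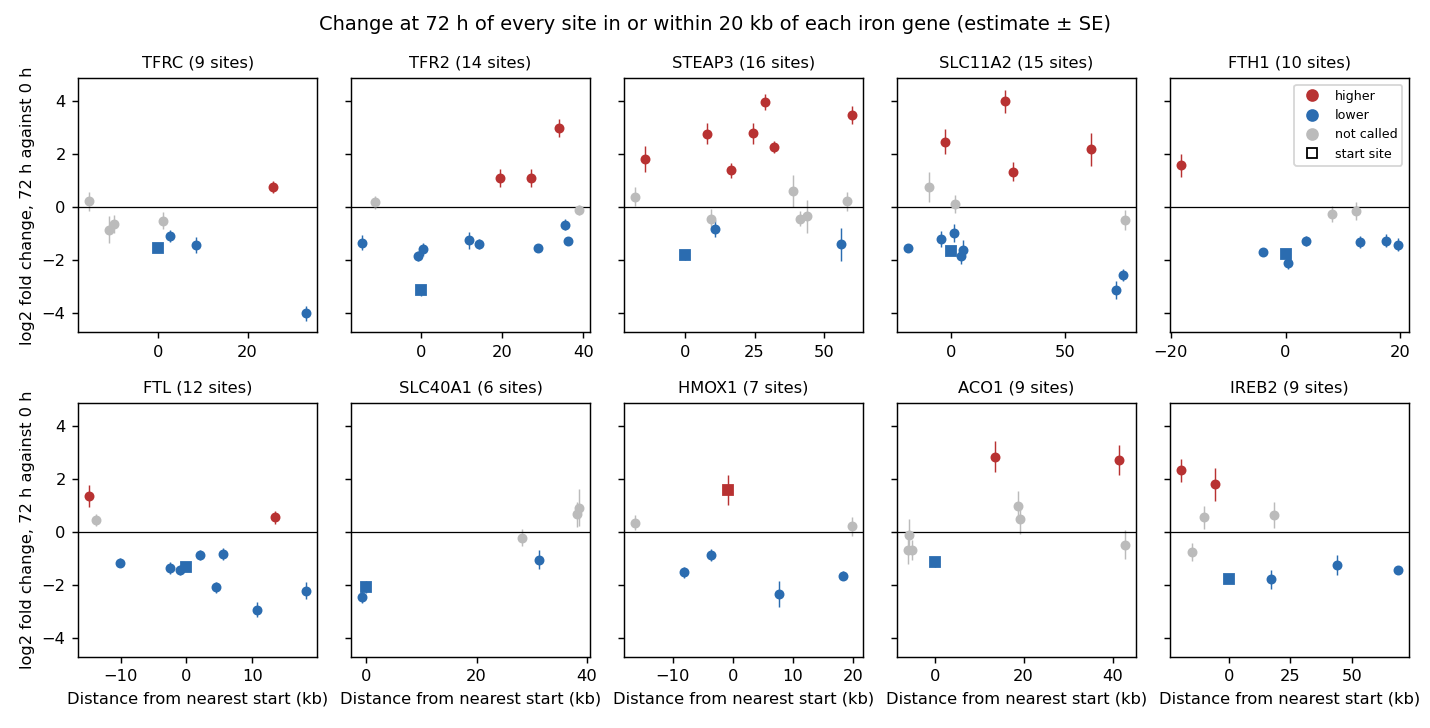
Log2 fold change at 72 h against 0 h (y axis, estimate ± SE) of each site around the 10 iron genes, by distance from the nearest start of the gene in kb (x axis, in the direction of transcription), with sites coloured by call and the start site as a square. On the TMM scale STEAP3 has 7 of 16 sites called higher, FTH1 1 of 10 and SLC40A1 none of 6, beside 38.2% of all tested sites.

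Summed over its sites, the accessibility around 9 of the genes was lower in both 72 h libraries than in both 0 h libraries. The same held for 73.1% of the 18954 protein-coding genes with a tested site in such a window, so a lower sum was common on this scale. TFRC went from 89.9 and 109.8 CPM at 0 h to 39.4 and 45.2 CPM at 72 h, FTL from 220.0 and 236.3 CPM to 101.9 and 105.0 CPM, and SLC40A1 from 46.5 and 64.6 CPM to 16.0 and 14.9 CPM. STEAP3 is the exception, at 60.0 and 73.7 CPM at 0 h, 75.4 and 73.7 CPM at 6 h, and 76.8 and 76.1 CPM at 72 h. What moved in STEAP3 is where the reads lie: the start site held 63.7% and 67.6% of them in the 0 h libraries, 37.8% and 28.7% after 6 h, and 18.6% and 14.4% after 72 h. A lower share at 72 h than at 0 h was not particular to STEAP3, since it was seen in each of the genes except HMOX1. The ACO1 share went from 86.85% and 81.95% to 60.53% and 60.12%. This share was not computed over all protein-coding genes. The sums carry no test, and they follow the scale of the libraries.

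**Figure D4:**
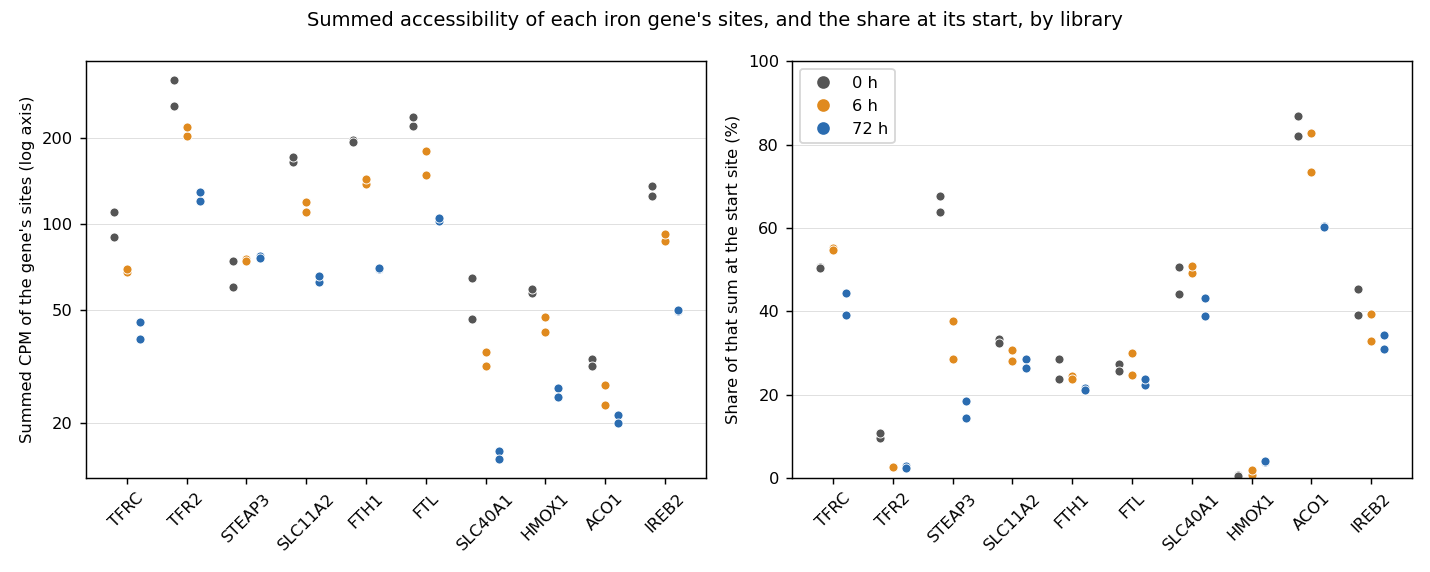
Left, summed CPM of all sites of each iron gene on a log axis; right, percent of that sum at the start site; 1 point for each library at 0, 6 and 72 h. The STEAP3 sum stays between 60.0 and 76.8 CPM while its start-site share drops from 67.6% to 14.4%.

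Levels between genes were compared only per length of site, at 0 h. Counted as CPM per kb, the FTH1 start site had 62.6, FTL 58.3, SLC11A2 56.6, STEAP3 42.8, TFR2 38.3, TFRC 38.1, IREB2 32.4, ACO1 24.5, SLC40A1 23.6 and the HMOX1 site 1.02. The replicate ranges of FTH1 and FTL overlap, as do those of STEAP3, TFR2 and TFRC, of TFR2 and IREB2, and of ACO1 and SLC40A1. K562 cells carry extra copies of parts of the genome, which these values do not correct for.

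How far each start-site call rests on the scale is shown in the plot of the 5 scalings. At 72 h against 0 h the falls of TFRC, TFR2, STEAP3, SLC11A2, FTH1, SLC40A1 and IREB2 were called on every scale. From 6 h to 72 h only the SLC40A1 start was, with loess offsets leaving 1 of the 10 called. The further fall from 6 h to 72 h at most start sites is thus tied to the scale.

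**Figure D5:**
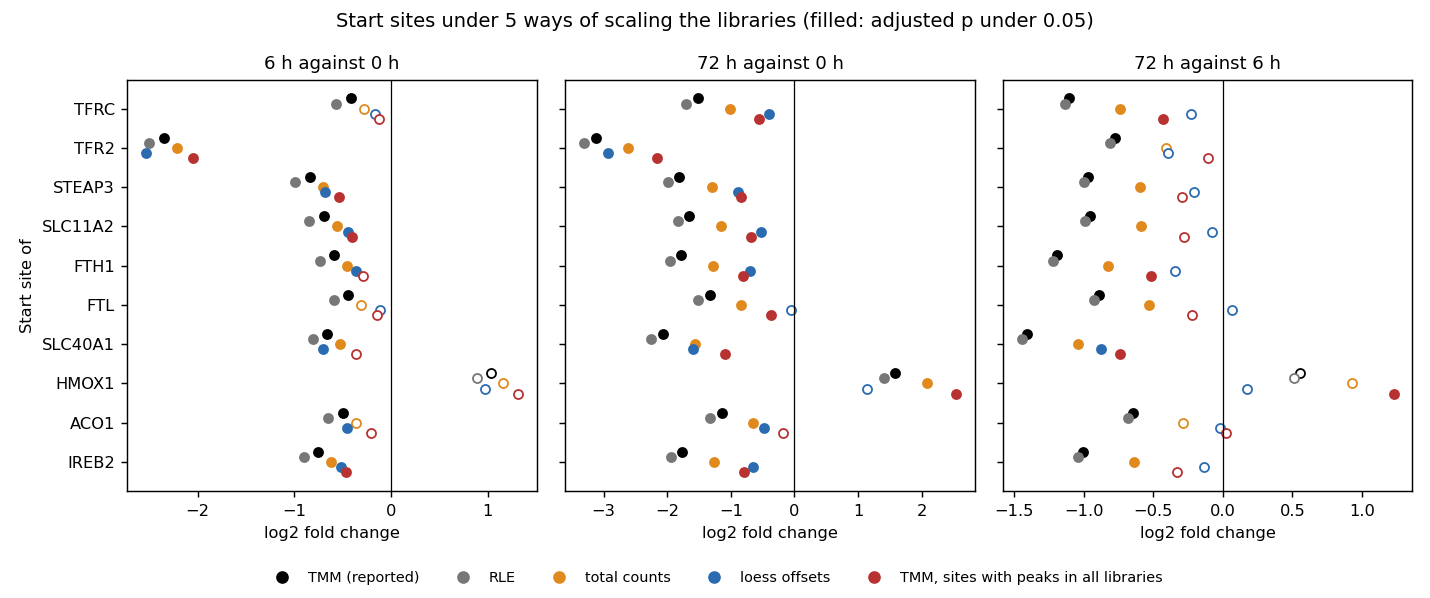
Log2 fold change of the 10 start sites (x axis) in the 3 comparisons under 5 ways of scaling the libraries, with filled points for an adjusted p under 0.05 in edgeR. TFR2 lies farthest left at 72 h on every scale, from −3.31 under RLE to −2.16 under the shared-peak factors, while FTL reaches −0.05 under loess offsets.

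Other genes of iron metabolism were read at their start sites only. Of 41 such genes, 36 had a promoter entry and 33 a tested start site. At 6 h none rose and 18 fell, beside 4.13% and 48% of gene starts. At 72 h 1 rose and 30 fell, beside 4.48% and 87.1% of gene starts, with medians of −1.37 and −1.33. Under loess offsets, 1 rose and 19 fell at 72 h, beside 8.68% and 53.6% of gene starts. On the TMM scale the largest falls at 72 h were at ABCB10, a mitochondrial transporter of haem-making cells, with 134.5 and 155.7 CPM at 0 h and 34.8 and 36.1 CPM at 72 h (−2.03 ± 0.13, edgeR, adjusted p = 1.6e-10), and at BLVRA, a biliverdin reductase (−1.99 ± 0.20, 2.1e-08). Under loess offsets ABCB10 was at −0.21 and not called (adjusted p = 0.106), BLVRA was still called at −1.43, and the largest falls were at HPX (−2.16), HEPH (−1.71) and HJV (−1.56). At 6 h the largest falls were at HPX, which encodes the haem carrier haemopexin (−1.58 ± 0.53, edgeR, adjusted p = 0.02), on a site with no peak in any library, and at HMOX2, the second haem oxygenase (−1.16 ± 0.18, 2.5e-05). The 1 rise was at LTF, which encodes the iron-binding protein lactoferrin, from 3.12 and 3.15 CPM at 0 h to 8.08 and 7.69 CPM at 72 h (1.33 ± 0.25, edgeR, adjusted p = 6.9e-05). All 5 mitochondrial genes with a start site fell at 72 h, but only 1 of them did so under loess offsets, while 6 of the 7 plasma carriers and sensors fell on each of these scales. Of all gene starts, 87.1% fell at 72 h on the TMM scale and 53.6% under loess offsets.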

How the data were processed

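The authors deposited 1 table of raw read counts per site and library, which also holds their log2 fold changes, and 1 peak list per library with each peak's fold enrichment (a ratio) and significance as −log10. The submitters' processing notes name Trim Galore 0.4.3, BWA 0.7.17, SAMtools 1.9, deepTools 3.0.1, MACS2, bedtools 2.26, DESeq and hg38. Which reads were kept, whether read ends were shifted and how sites were merged is not given in the sources used here. Site starts proved to be 0-based, and positions are printed 1-based. In the authors' deposited table the class names did not separate the iron sites by direction (of those classed downEarly, 2 had a log2 fold change above 0 at 72 h and 7 below), so they were not used.

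Counts were fitted with edgeR 4.0.16 in R 4.3.3 (glmQLFit, TMM, filterByExpr with a minimum of 10 counts, 3 time groups in 1 fit of 6 libraries). The filter left 177759 sites and removed 3376. A call is an adjusted p under 0.05, with Benjamini-Hochberg adjustment over all tested sites. CPM are counts per 1000000 of the TMM-scaled library, and errors of log2 fold changes are standard errors. The biological coefficient of variation was 0.166, and replicates differed beyond sampling noise (chi-square per degree of freedom 3.5 to 4.95). The smallest sum of counts of a time group at an iron site was 6.

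A start site is the tested site over a RefSeq start (GRCh38.p14 promoter entries) or else the nearest within 1000 bases. For TFR2, FTH1 and HMOX1 the start comes from the gene interval and the known strand. Named sites are each gene's start site and its largest called rise and fall at 6 h and at 72 h against 0 h, with a mean of at least 1 CPM and no overlap between libraries. Other iron genes are named by the 2 largest called rises and falls at each time. Genes and lists were chosen with earlier results of these data known. The alternatives were RLE size factors, total counts, loess offsets (span 0.3), TMM factors from sites that carry a peak in every library (shared-peak factors), no filter, DESeq2 1.42.0, a stricter threshold, other windows, a replicate block, a fit of only the 4 libraries compared, and leaving out each library.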

Additional observations from a re-analysis of the deposited data

Results flagged for a closer look

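A pair of sites changed in opposite directions at 6 h and at 72 h, both against 0 h, and the difference between the 2 times was itself tested. In the TFR2 window, a site within PCOLCE (chr7:100605442-100606019) measured 8.32 and 11.1 CPM at 0 h, 13.1 and 16.3 CPM at 6 h, and 6.21 and 6.18 CPM at 72 h. Its log2 fold change was 0.60 ± 0.21 at 6 h (edgeR, adjusted p = 0.029), −0.66 ± 0.22 at 72 h (0.01) and −1.26 ± 0.21 from 6 h to 72 h (7.2e-05). The call at 6 h held under total counts and shared-peak factors alone of the other scales, and the call at 72 h under RLE and loess offsets alone, so the opposite directions were both called only on the TMM scale. The STEAP3 site 16577 bases past the start had −0.99 at 6 h and 1.39 at 72 h against 0 h, and 2.38 ± 0.30 from 6 h to 72 h (edgeR, adjusted p = 3e-06).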

How the results depend on the processing

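The number of iron sites called changed was 55 at 6 h against 0 h, 75 at 72 h against 0 h and 58 at 72 h against 6 h. With an adjusted p under 0.01 and a log2 fold change above 1 in size, 21 were called at 6 h (13 higher and 8 lower), 63 at 72 h against 0 h (19 and 44) and 26 at 72 h against 6 h. Gene bodies alone gave 26, 34 and 24 calls, windows of 5 kb 34, 49 and 37, and windows of 50 kb 94, 134 and 88, which changes the number of sites read. Leaving out 1 library gave 40 to 50, 60 to 76 and 31 to 60 calls, the lowest of the last without 72 h replicate 2. Under the other scalings the counts ran from 38 to 55, 70 to 76 and 39 to 59, without a filter they were 54, 75 and 58, and DESeq2 called 49, 66 and 47. The replicate block gave 54, 75 and 60 calls. Replicate numbers do not pair the samples by the labels, and deviations of same-numbered libraries correlated at 0.131, 0.0762 and 0.118. Of 90 values of named sites, the replicate block changed no call, RLE 1, total counts 6, DESeq2 7, loess offsets 21 and the shared-peak factors 25. Among values called under at least 1 of the 2 settings compared, the sign changed for the FTH1 site within BEST1 at 72 h against 0 h (0.70 under the shared-peak factors), the FTL start from 6 h to 72 h (0.0673 under loess offsets), the FTL site 2522 bases upstream from 6 h to 72 h (0.54 under the shared-peak factors) and the ACO1 start from 6 h to 72 h (0.0234 under the shared-peak factors). A further 8 of the 90 values changed sign with no call on either side, most of them from 6 h to 72 h (the STEAP3 site 28819 bases past the start went from −0.31 to 0.36 under the shared-peak factors). The cause was not tested.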
